A study of Mus musculus with 16 samples.

Results

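The response of wild-type (WT) dendritic cells to TLR7 and TLR9 agonists was taken from 4 of the 16 RNA-seq libraries of the series, by their labels. The 4 libraries were 2 WT vehicle and 2 WT agonist libraries. The cells came from NZM2410 mice, an inbred strain that develops lupus-like disease, with an intact estrogen receptor α and, by the surgery label, no surgery. Text on ovariectomy is also attached to these samples, and the surgery label was followed. Marrow was grown with GM-CSF at 20 ng/ml and IL-4 at 10 ng/ml and harvested on day 7. The agonist group received loxoribine, a guanosine analogue that activates TLR7, with CpG DNA at 1 μg/ml, which activates TLR9, for 24 h. The other group received vehicle by the protocol and is labelled untreated. The study's design text describes the cells as CD11c-high. Labels speak of triplicates, and 2 libraries of each group are analysed here. They also record corrupted raw reads for agonist replicate 1 and a corrupted mate file for vehicle replicate 1, and both libraries have values in the deposited table. Whether the pair of libraries in a group stemmed from different mice or cultures is not stated. P-values therefore speak only of the scatter among these libraries, and that may be technical. Every gene of the table was examined, and 11349 of 24001 gene entries reached 1 FPKM (fragments normalised to transcript length and to library size) in at least 2 of the 16 libraries and were tested.

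TLR7 and TLR9 sit in the endosomes of dendritic cells and bind single-stranded RNA and unmethylated CpG DNA. Through the adaptor MyD88 and the kinases of the IRAK family they free NF-kB from its IkB inhibitors, start MAP kinases and, in some cells, turn on interferon regulatory factors. Dendritic cells that have met such ligands secrete cytokines, change their chemokine receptors and display costimulatory ligands to T cells. In lupus the same receptors respond to RNA and DNA of the body's own cells.

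The 2 libraries of a group were close. Pearson's r across genes, which are not independent replicates, was 0.999 within each group and 0.981 to 0.982 between groups. Estimated depth was 36.5 to 43.5 M fragments (M, mega) per library. In genes with at least 5000 estimated fragments the 2 libraries still differed by more than counting noise, with a variance of 5.08 times the counting variance in the vehicle pair and 8.58 times in the agonist pair. At an adjusted p of 0.05 in limma 57.9% of the genes tested were called, of which 3500 rose (30.8% of all tested) and 3069 fell (27.0%), and these shares are the background for the counts of members below. Most of these changes were small. The called genes had a median absolute log2 fold change of 0.24, and 268 passed 2-fold, 178 upward (1.57%) and 90 downward (0.793%). These 2-fold counts were 254 and 251 with a pseudocount of 0.1 FPKM, and 180 and 191 with every library scaled to the same sum. That sum exceeds those of the FPKM, while the pseudocount stayed at 1 and thus weighed less, and 12087 genes were tested. Scale and pseudocount therefore cannot be told apart in that setting. With each library scaled by its median ratio to the geometric mean (the median ratio scale) the counts stayed at 178 and 90. The excess of rises over falls thus depended on the pseudocount. FPKM summed to 489612 and 489741 with vehicle and to 522287 and 521567 with the agonists. Scaling every library to the same sum (the equal-sum scale) shifted the median log2 fold change of all genes from 0.02 to -0.06, and 2152 genes then rose and 4538 fell. The share of rises among the calls went from 53.3% to 32.2% on that scale. On the median ratio scale 3401 genes rose and 3113 fell, with a median log2 fold change of 0.02. Small changes, of the order of the shift from 0.02 to -0.06, are relative to the scale used. In all called genes named below both agonist libraries lay on the same side of both vehicle libraries. Over all genes tested they lay above them in 43.2% and below them in 35.9%.

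**Figure D1:**
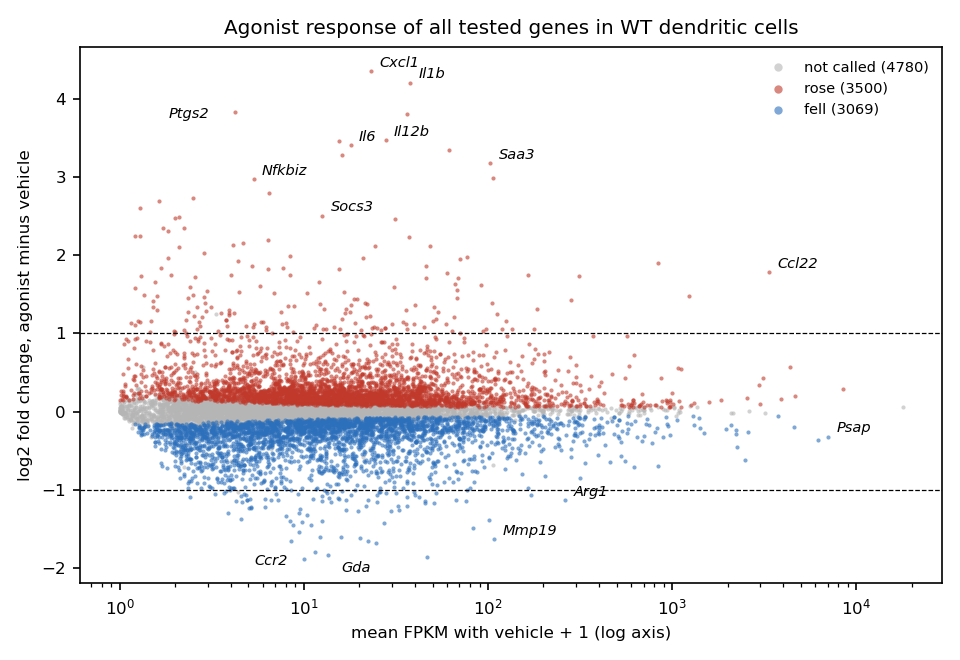
Each point is a tested gene, with its mean FPKM over the 2 vehicle libraries plus 1 on a log axis and its log2 fold change (agonist minus vehicle) on the vertical axis. Genes that rose or fell at an adjusted p of 0.05 are coloured, and the dashed lines mark 2-fold. The 178 called genes above the upper line reach 4.36 (Cxcl1), while the 90 called genes below the lower line reach -1.89 (Ccr2).

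The label was checked against marker genes. Itgax, which encodes CD11c, the surface protein the study used to define its cells, was at 109 and 108 FPKM with vehicle and 106 and 103 FPKM with the agonists, and it did not pass the test, but it passed as lower on the equal-sum scale (-0.15, limma adjusted p = 0.00265). Cd209a, a marker of monocyte-derived dendritic cells, was listed at 0 in all 4 libraries. The chemokine receptor Ccr7 and the class II chain Cd74 were at 1120.1 and 1123 FPKM and 3757 and 3774 FPKM with vehicle, both already high. Macrophage markers were also high. Of 13 such markers 11 fell and 2 rose, and their summed FPKM was 8441 and 8336 with vehicle and 7272 and 6919 with the agonists. Of 13 dendritic cell markers 5 rose and 3 fell, Dpp4 (-0.49), Kmo (-0.76) and Cd74 (-0.05, which lost its call with any 1 library left out), and 3 were under 1 FPKM in all 4 libraries. Their summed FPKM was 5306 and 5314 with vehicle and 5699 and 5825 with the agonists, and Ccr7, at 1598 and 1690.2 FPKM with the agonists against 1120.1 and 1123 with vehicle, gained more than the sum did. Of the lymphocyte markers, 10 of 11 for T and NK cells and 8 of 9 for B and plasma cells were under 1 FPKM in all 4 libraries. The exceptions were Lck (0.577 and 0.577 FPKM with vehicle, 1.14 and 1.18 with the agonists) and the abundant Sdc1 (121 and 119 FPKM with vehicle, 92.2 and 90.7 with the agonists). Of 14 neutrophil markers 8 were under 1 FPKM throughout, while 3 rose and 2 fell. The 14 summed to 293.4 and 313.1 FPKM with vehicle and 266.4 and 255 FPKM with the agonists. Transcripts of this list were thus present in all 4 libraries. In such bulk samples fewer cells of a type and less RNA per cell cannot be told apart.

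The receptors that the agonists engage were lower after 24 h. Tlr9 was at 11.8 and 11.99 FPKM with vehicle and 8.32 and 8.39 FPKM with the agonists, a log2 fold change of -0.46 ± 0.03 with its standard error (limma adjusted p = 2.10e-06), on the log2(FPKM + 1) scale that understates the change of low genes and is used throughout. Tlr7 was at 20.7 and 20.9 FPKM with vehicle and 16.8 and 16.1 FPKM with the agonists (-0.32 ± 0.04, limma adjusted p = 5.29e-05). Tlr8, the neighbour of Tlr7 in sequence and on the X chromosome, fell the most of this group, from 26.6 and 26.7 to 14.3 and 13.4 FPKM (-0.90 ± 0.05, limma adjusted p = 2.07e-07). Their chaperone Unc93b1, which carries them from the endoplasmic reticulum to endosomes, went from 175 and 178 to 152 and 149 FPKM. Of 15 genes for endosomal TLRs and their transport 13 were tested, of which 8 fell and 3 rose, with a median log2 fold change of -0.15 against 0.02 over all genes. The rises were those of Slc15a3 (0.37), a histidine and peptide carrier of endolysosomes, Lrrc59 (0.15) and Tlr11 (0.39). On the equal-sum scale 2 rose and 10 fell, and Lrrc59 lost its call (0.06, limma adjusted p = 0.0608).

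Receptors of the cell surface moved in both directions. Tlr2 went from 38.5 and 40.3 to 104 and 102 FPKM (1.37 ± 0.03, limma adjusted p = 1.16e-09) and its partner Tlr1 from 2.83 and 3.06 to 8.62 and 8.89 FPKM, and Tlr6, which also pairs with Tlr2 to bind bacterial lipopeptides, rose by 0.45. The lipopolysaccharide receptor Tlr4 fell, from 33.5 and 32.9 to 23.6 and 23.3 FPKM, while the other parts of that complex rose, Cd14 from 367 and 375 to 728 and 721 FPKM and Ly96 (MD-2) from 26.9 and 30.1 to 36.4 and 37.96 FPKM. Cd180, a TLR4 relative that restrains it, was at 25.5 and 24.1 FPKM with vehicle and 12.5 and 11.7 FPKM with the agonists. In this list of 10 genes 5 rose and 5 fell.

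Below the receptors, the adaptors and kinases rose more often than not. Of 25 tested 18 rose and 2 fell (median 0.17), and 12 rose and 5 fell when all libraries were scaled to the same sum. The largest rise was that of Irak3, a kinase-dead IRAK that brakes the pathway. It went from 14.4 and 14.5 to 55.4 and 52.2 FPKM (1.82 ± 0.04, limma adjusted p = 7.91e-10), with the libraries of each group close together. The IkB kinase genes Ikbke (0.84) and Ikbkb (0.55) rose, as did Ticam2 (0.77), the adaptor TRAM. Myd88 itself rose little, from 37.4 and 38.1 to 44.5 and 47.2 FPKM. The 2 falls were those of the ubiquitin ligase Peli2 (-0.55) and the orphan receptor Sigirr (-0.52).

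Of 12 NF-kB subunit and IkB genes 10 rose (median 0.56), and the remaining pair, Relb (0.02) and Nfkbil1 (-0.04), did not pass the test. Scaled to the same sum these 10 still rose, and 2 fell. Among the DNA-binding subunits the precursors Nfkb1 (from 77.8 and 76.9 to 115 and 113 FPKM) and Nfkb2 (from 99.1 and 99.7 to 141 and 148 FPKM) rose more than Rela (0.30) and Rel (0.20), a difference that was not tested. The inhibitor Nfkbia (IkBα), which closes the first feedback loop, was at 174 and 179 FPKM with vehicle and 364 and 371 FPKM with the agonists (1.05 ± 0.03, limma adjusted p = 1.54e-09). Nfkbiz, a nuclear IkB protein that works as a coactivator at secondary genes such as Il6, went from 4.35 and 4.34 to 41.8 and 40.4 FPKM. That rise, 2.98 ± 0.04, exceeded those of the other members, where Nfkbid (0.75), Nfkbie (0.72) and Nfkbib (0.61) lay under 1 log2 unit.

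Feedback genes outside the IkB family had 9 rises and 2 falls among 17 (median 0.24), or 9 and 4 on the equal-sum scale. Zc3h12a, a nuclease that cuts cytokine mRNAs, was at 19.6 and 20.4 FPKM with vehicle and 82.3 and 80.7 FPKM with the agonists (1.97 ± 0.03, limma adjusted p = 4.64e-11). The ubiquitin-editing enzyme Tnfaip3 (A20) went from 37.7 and 39.9 to 86.3 and 85.3 FPKM and its partner Tnip1 from 72.2 and 73.5 to 139.9 and 143 FPKM. The mRNA-decay factors Zfp36l2 (-0.83) and Zfp36l1 (-0.18) fell. Zfp36l2 and Zc3h12a, which both shorten the life of mRNAs, thus moved in opposite directions.

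The bases upstream of 4 of these genes are printed because each holds a match to the 10-letter NF-kB consensus and each gene rose over 2-fold. The stretches are the 250 bases before the RefSeq gene start (build GRCm38.p6), read 5′ to 3′ on the gene's strand, with the match in capitals. Cxcl1 is shown from chr5:90890995-90891244 and Cxcl2 from chr5:90903649-90903898, its neighbour, both on the plus strand. Il6 is shown from chr5:30012864-30013113 on the plus strand and Nfkbia from chr12:55492648-55492897 on the minus strand.
Cxcl1: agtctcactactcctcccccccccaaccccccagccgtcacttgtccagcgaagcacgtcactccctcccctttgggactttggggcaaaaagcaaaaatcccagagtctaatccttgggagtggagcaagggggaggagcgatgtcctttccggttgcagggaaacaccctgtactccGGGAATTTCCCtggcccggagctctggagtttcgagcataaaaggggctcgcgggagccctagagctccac
Cxcl2: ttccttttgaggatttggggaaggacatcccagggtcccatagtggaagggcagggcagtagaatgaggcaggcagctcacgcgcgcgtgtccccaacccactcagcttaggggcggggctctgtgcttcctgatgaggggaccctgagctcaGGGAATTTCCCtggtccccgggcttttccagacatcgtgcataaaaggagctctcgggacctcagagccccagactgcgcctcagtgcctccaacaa
Il6: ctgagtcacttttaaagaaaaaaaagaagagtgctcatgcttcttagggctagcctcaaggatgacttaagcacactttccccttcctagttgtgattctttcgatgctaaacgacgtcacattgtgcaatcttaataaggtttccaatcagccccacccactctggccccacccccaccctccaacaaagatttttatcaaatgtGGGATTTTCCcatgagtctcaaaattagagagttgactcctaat
Nfkbia: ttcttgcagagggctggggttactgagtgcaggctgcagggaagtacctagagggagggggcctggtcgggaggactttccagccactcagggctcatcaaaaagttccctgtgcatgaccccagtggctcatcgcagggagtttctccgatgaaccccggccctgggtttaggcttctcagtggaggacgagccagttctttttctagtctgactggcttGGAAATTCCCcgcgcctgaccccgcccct
The capitals in Cxcl1 and Cxcl2 are a run of the same 11 letters, which holds 2 overlapping matches and begins 71 bases before the start of Cxcl1 and 97 before that of Cxcl2. The match begins 44 bases before the start of Il6 and 29 before that of Nfkbia. These 4 genes were chosen after the matches were seen. In 8630 tested genes with a RefSeq window, 5.55% held at least 1 match on either strand in the bases upstream of any of their starts. The share was 15.2% (21 of 138) in genes that rose over 2-fold and 6.25% (4 of 64) in genes that fell over 2-fold. Among all called genes it was nearer to that background, 6.34% of 2667 that rose and 5.99% of 2321 that fell. In all 32851 windows, expressed or not, it was 3.9%. The C/EBP letters TTGCNNAA were in 20.3% of the genes that rose over 2-fold, 14.1% of those that fell over 2-fold and 9.28% of all tested genes. The AP-1 letters TGANTCA were in 10.1% and 10.9% of these sets against 5.61% of all tested genes, and those of the interferon-stimulated response element in 7.25% and 1.56% against 3.41%. The CRE letters TGACGTCA were in 0.725% of the genes that rose over 2-fold, 0.0% of those that fell over 2-fold (0 of 64) and 3.11% of all tested genes. Among all called genes that rose and fell, the C/EBP letters were in 8.62% and 10.2% and the AP-1 letters in 4.99% and 6.64%. Those of the interferon-stimulated response element were in 3.82% and 4.01%, and the CRE letters in 3.19% and 2.41%. Both strands were searched, and these motifs can share bases with one another. A match is a description of the sequence and no test was made. The windows of Il1b, Ptgs2, Tnf and Il12b held no such NF-kB letters.

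The MAP kinase and AP-1 genes moved in both directions. Of 21 MAP kinase phosphatases and regulators 11 rose and 6 fell, with rises in the kinase Map3k8 (TPL2, from 7.12 and 7.14 to 16.3 and 16.2 FPKM) and the phosphatase Dusp14 (from 4.83 and 4.89 to 11.9 and 11.9 FPKM) and falls in the ERK phosphatase Dusp6 (from 29.4 and 29.1 to 16.6 and 15.3 FPKM) and Gadd45g (from 18.4 and 17.6 to 8.63 and 8.41 FPKM). The immediate early genes were lower at 24 h, Fos from 40.01 and 38.4 to 18.1 and 18.1 FPKM (-1.07 ± 0.07, limma adjusted p = 6.44e-07), Egr1 from 3.36 and 3.16 to 1.69 and 1.68 FPKM and Myc from 13.9 and 13.9 to 7.07 and 6.65 FPKM. Batf, an AP-1 factor that pairs with Irf4 and Irf8 in dendritic cells, went the other way, from 25.2 and 27.1 to 49.8 and 48.8 FPKM (0.89 ± 0.03). The list of 31 AP-1, Egr and Atf factors had 14 rises and 7 falls, and 11 and 11 when all libraries were scaled to the same sum.

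Among STAT and SOCS genes the feedback inhibitor of interleukin 6 signalling, Socs3, went from 11.2 and 11.97 to 71.1 and 70.4 FPKM (2.51 ± 0.03, limma adjusted p = 4.54e-11). Socs1 rose less, from 22.6 and 24.9 to 39.4 and 40.2 FPKM. Stat5a, which carries the GM-CSF signal, was at 34.7 and 35.1 FPKM with vehicle and 85.5 and 89.96 FPKM with the agonists and its twin Stat5b rose by 0.55. In all 10 of 22 rose and 5 fell, or 3 fell without vehicle replicate 2 or agonist replicate 1.

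**Figure D2:**
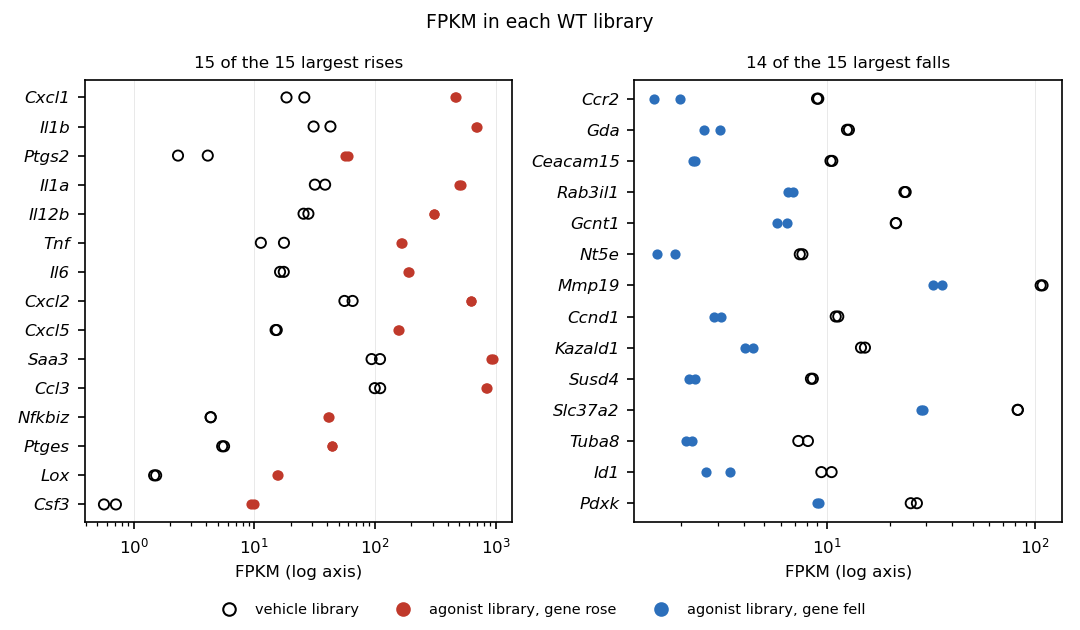
FPKM on a log axis in each WT library for the 15 largest rises and 14 of the 15 largest falls, with vehicle libraries as open circles and agonist libraries as filled circles. The vehicle and agonist circles of every gene stand apart, and the vehicle circles of Ptgs2 (2.33 and 4.11), Tnf (11.3 and 17.6) and Il1b (31.0 and 42.7) lie farther from each other than those of Il12b (25.6 and 28.1).

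Cytokines of the interleukin 1 family rose with their receptor and fell on the interleukin 18 side. Il1a, a cytokine that works as an alarm when released from cells, was at 31.7 and 38.6 FPKM with vehicle and 512 and 501 FPKM with the agonists (3.82 ± 0.09, limma adjusted p = 1.25e-07). Il1b was at 30.98 and 42.7 FPKM with vehicle and 702 and 682 FPKM with the agonists. Relative to their level, the vehicle libraries differed more than those of the agonists. The interleukin 36 genes Il1f9 (Il36g, from 15.6 and 16.1 to 38.8 and 40.1 FPKM) and Il1f6 (Il36a, from 0.267 and 0.246 to 1.47 and 2.17 FPKM) rose, and Il1r1 went from 4.11 and 4.61 to 10.6 and 10.7 FPKM. Il18 was lower, from 5.72 and 5.22 to 3.27 and 2.86 FPKM, and so were both chains of its receptor, Il18r1 (from 1.49 and 1.35 to 0.0653 and 0.210 FPKM) and Il18rap (from 1.31 and 1.39 to 0.220 and 0.169 FPKM), all at low levels. The family had 8 rises and 6 falls among 14 tested, or 6 and 6 on the equal-sum scale.

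All 5 cytokine chains of the interleukin 12 family rose, and its receptors mostly did not. The p35 chain Il12a, which limits interleukin 12 itself, was at 0.249 and 0.340 FPKM with vehicle and 6.85 and 6.88 FPKM with the agonists (2.60 ± 0.07, limma adjusted p = 1.57e-09), and the p19 chain Il23a of interleukin 23 was at 0.267 and 0.315 FPKM with vehicle and 4.77 and 5.47 FPKM with the agonists. The shared chain Il12b was far more abundant, from 25.6 and 28.1 to 306 and 309 FPKM. For interleukin 27, Ebi3 went from 67.7 and 67.8 to 221 and 225 FPKM and Il27 from 0.238 and 0.328 to 1.70 and 1.99 FPKM. On the FPKM scale, which divides by transcript length, Il12b and Ebi3 were thus well above their partner chains in all 4 libraries. The receptor chain Il12rb2 fell, from 14.2 and 14.3 to 6.01 and 6.16 FPKM (-1.11 ± 0.04), as did the shared chain Il6st (gp130, -0.55). The 1 receptor rise in this list, that of Il23r (0.20), lost its call without vehicle replicate 1, vehicle replicate 2 or agonist replicate 1 (adjusted p = 0.0665, 0.0995 and 0.134 in limma), with no filter on low values, with all 16 libraries as separate samples and on the equal-sum scale (0.0580, 0.0539 and 0.105).

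Il6 itself went from 16.3 and 17.5 to 192 and 189 FPKM and Lif, a relative that also works through gp130, from 1.34 and 1.34 to 4.48 and 4.85 FPKM. Il10, which restrains these cytokines, was at 0.0558 and 0.0660 FPKM with vehicle and 1.16 and 0.744 FPKM with the agonists, low in every library (0.87 ± 0.09, limma adjusted p = 3.13e-05). Its receptor chain Il10ra rose (0.38) while Il10rb (-0.28) and Il6ra (-0.43) fell. These families had 4 rises and 3 falls of 10, or 4 and 5 on the equal-sum scale.

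Among the TNF ligands, Tnf was at 11.3 and 17.6 FPKM with vehicle and 167 and 165 FPKM with the agonists (3.47 ± 0.21, limma adjusted p = 1.25e-04). The costimulators of T cells rose, Cd70 from 1.10 and 1.12 to 7.96 and 8.30 FPKM, Tnfsf15 (TL1A) from 9.15 and 9.63 to 28.4 and 29.1 FPKM, Tnfsf9 (4-1BB ligand) from 4.13 and 4.41 to 9.84 and 10.4 FPKM and the more abundant Tnfsf4 (OX40 ligand) from 137 and 131 to 273 and 284 FPKM. The B cell survival factors went down instead. Tnfsf13b (BAFF), which is raised in blood in lupus, was at 3.77 and 3.53 FPKM with vehicle and 1.68 and 1.71 FPKM with the agonists (-0.79 ± 0.05, limma adjusted p = 7.79e-07), and Tnfsf13 (APRIL) at 10.4 and 9.77 FPKM with vehicle and 5.67 and 5.51 FPKM with the agonists (-0.75 ± 0.04). Tnfsf12 (TWEAK, -0.71) and Tnfsf14 (LIGHT, -1.06) fell too. Of 13 ligands 5 rose, each over 2-fold, and 6 fell.

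TNF receptors had 7 rises and 7 falls among 17, 4 falls without vehicle replicate 1, and 6 and 9 on the equal-sum scale. Cd40, the receptor through which helper T cells license dendritic cells, went from 29.3 and 31.6 to 171 and 175 FPKM (2.47 ± 0.04, limma adjusted p = 1.00e-10). The second TNF receptor Tnfrsf1b was at 104 and 104 FPKM with vehicle and 275 and 274 FPKM with the agonists and the death receptor Fas went from 30.5 and 30.97 to 51.7 and 53.4 FPKM. Tnfrsf9 (4-1BB), high before treatment, went from 292 and 292 to 237 and 239 FPKM.

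The 4 largest gains in FPKM were in chemokines. Ccl22, which draws T cells that carry CCR4, was at 3367 and 3384 FPKM with vehicle and 11227 and 11988 FPKM with the agonists (1.78 ± 0.03, limma adjusted p = 8.20e-10), a mean gain of 8232 FPKM and the largest of any gene tested. After Fth1 it had the highest agonist level. The next gains were those of Cxcl3 (2306 FPKM, from 816 and 862 to 3179 and 3110.2 FPKM), Ccl17 (2211 FPKM, from 1218 and 1241 to 3371 and 3509.8 FPKM), which shares the receptor of Ccl22, and Ccl5 (2155 FPKM, from 4337 and 4417 to 6273 and 6791 FPKM). Neutrophil attractants rose from lower levels, Cxcl1 from 18.5 and 25.95 to 465 and 471 FPKM, Cxcl2 from 55.8 and 65.2 to 627 and 621 FPKM and Cxcl5 from 15.3 and 14.996 to 155 and 157 FPKM. Ccl3 (from 99.5 and 110.4 to 845 and 838 FPKM) and Ccl4 (from 52.1 and 66.3 to 208 and 199.8 FPKM), attractants of monocytes and T cells, rose too. Ccl7 (from 74.01 and 70.04 to 59.3 and 55.8 FPKM) and Ccl12 (from 6.74 and 8.44 to 4.69 and 5.26 FPKM), ligands of CCR2, and Ccl6 (from 2237 and 2235 to 1657 and 1603 FPKM) fell, Ccl12 losing its call without vehicle replicate 2 or agonist replicate 1 (adjusted p = 0.0625 and 0.0950 in limma) or with a pseudocount of 0.1 FPKM (0.116). So did Cxcl14 (from 78.8 and 78.7 to 40.6 and 38.2 FPKM) and Ppbp (from 689.8 and 678 to 544 and 513 FPKM). Cxcl10, a ligand of CXCR3 induced by interferons, rose to a low level, from 3.50 and 2.82 to 7.62 and 10.4 FPKM, and Cxcl9 stayed under 1 FPKM in all 4 libraries (0.255 and 0.256 FPKM with vehicle and 0.380 and 0.369 FPKM with the agonists). The CC list had 6 rises and 5 falls of 14, and the CXC list 7 and 3 of 13.

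Of 11 chemokine receptors 3 rose and 4 fell, or 5 and 5 on the equal-sum scale. Ccr2, which brings monocytes out of marrow to inflamed tissue, was at 8.96 and 9.09 FPKM with vehicle and 1.96 and 1.48 FPKM with the agonists (-1.89 ± 0.08, limma adjusted p = 4.28e-08). Ccr1 went from 140.2 and 141 to 92.6 and 89.7 FPKM and Cxcr4 from 57.8 and 59.02 to 35.2 and 36.3 FPKM. Ccr7, which leads dendritic cells along CCL19 and CCL21 into lymph nodes, went from 1120.1 and 1123 to 1598 and 1690.2 FPKM (0.55 ± 0.03, limma adjusted p = 2.92e-07), and the decoy-like Ccrl2 went from 17.2 and 18.4 to 50.7 and 49.6 FPKM. Gpr183, a receptor for oxysterols that positions dendritic cells in the spleen, fell, from 7.36 and 7.51 to 2.15 and 2.22 FPKM, as did S1pr1 (from 24.8 and 23.4 to 10.4 and 10.2 FPKM), the exit receptor for sphingosine 1-phosphate. The formyl peptide receptors Fpr1 (from 35.1 and 37.1 to 176 and 171 FPKM) and Fpr2 (from 63.01 and 67.5 to 209 and 201 FPKM), which sense bacterial and mitochondrial peptides, rose, together with the niacin and ketone body receptor Hcar2 (from 3.02 and 3.27 to 17.5 and 16.8 FPKM) and Gpr84 (from 17.3 and 19.4 to 53.2 and 50.3 FPKM). Of 41 such G protein-coupled receptors 11 rose and 20 fell.

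**Figure D3:**
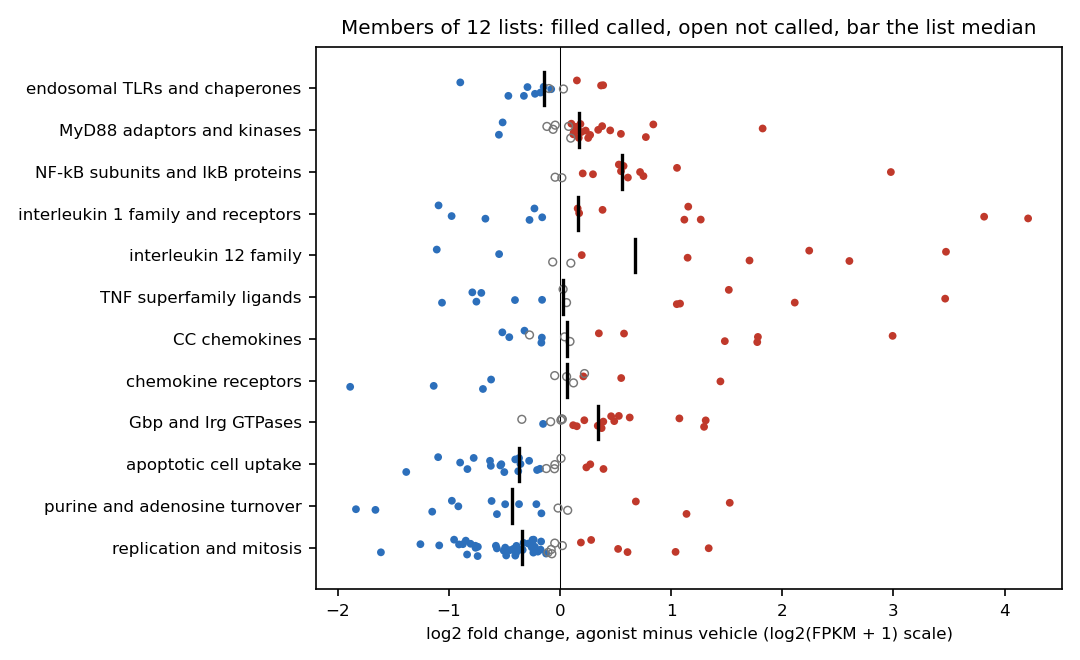
Log2 fold changes of the tested members of 12 lists, one point a gene, filled where the adjusted p was under 0.05 and open otherwise, with the list median as a bar. The NF-kB subunit points lie at or above -0.04, the replication points lie mostly below 0, and the interleukin 1, TNF ligand and chemokine receptor lists spread to both sides.

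Ligands for T cells rose more often than they fell. Of 22 B7 and adhesion ligands 13 rose and 6 fell, or 10 and 7 on the equal-sum scale. The costimulators Cd80 (from 51.7 and 50.8 to 116 and 121 FPKM), Cd86 (from 50.9 and 51.2 to 96.1 and 101 FPKM) and Icosl (from 7.19 and 7.13 to 19.8 and 20.02 FPKM) rose beside the inhibitory ligand Cd274 (PD-L1, from 171 and 173 to 262 and 267 FPKM). Pvr (CD155), which binds both activating and inhibitory receptors, went from 20.3 and 20.6 to 55.1 and 55.5 FPKM. The largest fall was in 4632428N05Rik, the file's symbol for Vsir (VISTA), another inhibitory ligand, from 19.8 and 18.7 to 5.63 and 5.53 FPKM (-1.62 ± 0.04, limma adjusted p = 8.20e-10). Havcr2 (TIM-3) fell as well, from 21.5 and 20.9 to 9.54 and 8.82 FPKM.

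Antigen presentation genes changed by less. Ciita, the master regulator of class II genes, went from 11.5 and 11.8 to 19.8 and 20.1 FPKM (0.72 ± 0.03, limma adjusted p = 2.36e-08). The classical class II chains moved by under 0.2 log2 units, H2-Ab1 from 218 and 208 to 235 and 229.7 FPKM, H2-Eb1 from 332 and 327 to 356 and 354 FPKM and H2-Aa from 610.0 and 613 to 638 and 640.3 FPKM. Of 14 class II genes 9 rose and 2 fell, but 4 rose and 2 fell when all libraries were scaled to the same sum, where H2-Aa changed sign (-0.03) and H2-Ab1 (0.03, limma adjusted p = 0.308) and H2-Eb1 (0.01, limma adjusted p = 0.559) lost their calls. The falls numbered 0 or 1 with any 1 of the 4 libraries left out, and H2-Aa then lost its call. Among 25 class I and peptide-loading genes 12 rose and 3 fell, or 10 and 6 on the equal-sum scale, with H2-K1 from 1007 and 991 to 1157 and 1197 FPKM, the proteasome activator Psme2 from 268 and 275 to 386 and 395 FPKM and the nonclassical H2-M2 from 48.98 and 49.1 to 113 and 109 FPKM. Mr1, which shows vitamin B metabolites to mucosal T cells, fell, from 7.66 and 7.11 to 3.37 and 3.72 FPKM. The falls of the class I list numbered 1 without vehicle replicate 1, vehicle replicate 2 or agonist replicate 2. H2-Q6 was uneven (3.65 and 2.42 FPKM with vehicle and 3.64 and 0.429 FPKM with the agonists) and did not pass the test. The H2-Q genes are near copies, so their values are uncertain.

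Interferon-stimulated genes moved in both directions. Of 39 antiviral members 15 rose and 14 fell (median -0.04), and 9 rose and 20 fell when all libraries were scaled to the same sum. Rsad2 (viperin, from 18.4 and 19.6 to 29.2 and 32.2 FPKM), Isg15 (from 66.5 and 65.8 to 93.1 and 92.7 FPKM) and Slfn2 (from 296 and 299.8 to 457 and 449 FPKM) rose. Oas3, which makes the signal for RNase L, fell, from 46.8 and 45.8 to 30.3 and 29.9 FPKM (-0.60 ± 0.03, limma adjusted p = 5.05e-08), as did Trim25 (from 69.8 and 69.6 to 49.8 and 51.01 FPKM) and Usp18 (from 68.2 and 69.8 to 53.5 and 53.8 FPKM). Of 19 interferon-inducible GTPases 13 rose and 1 fell, or 11 and 2 on the equal-sum scale. Gbp2 was at 23.1 and 25.2 FPKM with vehicle and 52.02 and 51.7 FPKM with the agonists and Gbp5 at 11.8 and 11.8 FPKM with vehicle and 29.9 and 31.7 FPKM with the agonists, though close copies among the Gbp and Tgtp genes make single values uncertain.

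Interferon regulatory factors split evenly, with 5 rises and 5 falls among 14 genes as deposited, but 3 and 6 on the equal-sum scale. Irf4 (from 70.8 and 69.3 to 102 and 103 FPKM) and Irf8 (from 67.5 and 67.5 to 94.6 and 96.9 FPKM), which shape dendritic cell identity, rose. Irf5, which works with MyD88 and carries lupus risk alleles in people, fell, from 162 and 162 to 126 and 128 FPKM (-0.35 ± 0.03, limma adjusted p = 2.33e-06), and Irf7 fell, from 86.5 and 85.96 to 72.9 and 74.005 FPKM. Sensors and nucleases for nucleic acids were lower in 11 and higher in 4 of 22, or lower in 14 and higher in 2 on the equal-sum scale. The endolysosomal exonuclease Pld4, which degrades ligands of TLR7 and TLR9, went from 172 and 167 to 81.1 and 79.3 FPKM (-1.07 ± 0.03, limma adjusted p = 5.89e-09), and its relative Pld3 from 309 and 299.5 to 246 and 243 FPKM. The nucleotide hydrolase Samhd1 (from 128 and 128 to 85.9 and 86.3 FPKM) and the lysosomal nuclease Dnase2a (from 53.5 and 52.8 to 39.6 and 39.2 FPKM) fell as well. The DNA sensor cGAS (Mb21d1 in the file) rose slightly, from 7.04 and 7.32 to 9.35 and 8.66 FPKM.

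Of 24 genes for the uptake of dying cells 17 fell and 3 rose (median -0.37). Mertk (from 12.5 and 11.9 to 8.17 and 7.99 FPKM), its bridging ligand Gas6 (from 6.89 and 6.11 to 3.07 and 3.34 FPKM) and Axl (from 66.9 and 66.4 to 47.2 and 46.4 FPKM) fell, with the phosphatidylserine receptor Cd300lf (from 100.3 and 99.8 to 38.1 and 37.4 FPKM) and the integrin chain Itgb5 (from 41.9 and 40.3 to 19.03 and 18.4 FPKM). The bridging protein Mfge8 (from 335 and 332 to 255 and 259 FPKM), the matrix protein Thbs1 (from 359.6 and 342 to 286 and 262 FPKM) and the lipid receptor Trem2 (from 93.8 and 90.96 to 60.2 and 58.5 FPKM) fell as well. Scavenger receptors fell in 14 and rose in 3 of 19. The falls included those of the mannose receptor Mrc1 (from 35.7 and 34.9 to 19.4 and 17.8 FPKM), the largest, and of Msr1 (from 284 and 280.3 to 209.9 and 196 FPKM). Marco, which binds bacteria and particles, went against them, from 5.13 and 5.63 to 22.1 and 21.1 FPKM (1.83 ± 0.04, limma adjusted p = 5.08e-10). The Fc receptor list was even, 6 up and 6 down of 14 as deposited, and 4 and 7 on the equal-sum scale. Its high-affinity IgG receptor Fcgr1 went from 18.5 and 19.1 to 7.30 and 7.12 FPKM and the IgG transporter Fcgrt from 11.2 and 11.1 to 7.19 and 7.44 FPKM. Complement receptors C5ar1 (from 51.2 and 48.9 to 22.1 and 21.1 FPKM) and C3ar1 (from 71.5 and 69.2 to 41.5 and 39.4 FPKM) fell, and the alternative pathway component Cfb rose (from 97.3 and 99.4 to 152 and 150.2 FPKM). Complement as a list had 5 rises and 9 falls of 17. Of the 13 macrophage markers 11 fell in the same libraries, where their summed FPKM was 6919 to 7272 against 8336 to 8441 with vehicle, and their part in these changes was not tested. Emr1 (F4/80), a widely used macrophage marker, rose, from 64.6 and 64.2 to 154 and 146 FPKM (1.21 ± 0.03).

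C-type lectins divided. Clec4e (Mincle), which reports mycobacterial glycolipids and dead cells, was at 73.1 and 79.3 FPKM with vehicle and 308 and 299.8 FPKM with the agonists (1.98 ± 0.05, limma adjusted p = 2.32e-09), and Ly75 (DEC-205), an uptake receptor of dendritic cells, went from 73.99 and 72.9 to 137 and 137 FPKM. Clec7a (dectin-1), the receptor for fungal glucans, fell, from 312 and 319 to 180.1 and 169 FPKM. Of 21 lectins 8 rose and 11 fell. Paired receptors had 11 rises and 21 falls of 41. The inhibitory Siglece was at 1.90 and 1.83 FPKM with vehicle and 11.3 and 10.1 FPKM with the agonists (2.03 ± 0.06, limma adjusted p = 2.34e-09), whereas Cd200r1 (from 84.9 and 82.1 to 45.1 and 43.2 FPKM), Cd300a (from 29.6 and 29.8 to 15.8 and 15.2 FPKM) and Ceacam1 (from 14.7 and 14.2 to 6.09 and 6.19 FPKM) fell. Ceacam15 was among the largest falls, from 10.6 and 10.4 to 2.28 and 2.32 FPKM.

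Prostaglandin and leukotriene genes moved in both directions. Ptgs2, the inducible cyclooxygenase, was at 2.33 and 4.11 FPKM with vehicle and 59.2 and 56.9 FPKM with the agonists (3.84 ± 0.21, limma adjusted p = 6.81e-05), with vehicle libraries that differed from each other. Ptges, which turns its product into prostaglandin E2, went from 5.41 and 5.61 to 44.4 and 43.8 FPKM. The constitutive cyclooxygenase Ptgs1 fell, from 64.3 and 63.3 to 34.1 and 32.96 FPKM, with the thromboxane synthase Tbxas1 (from 49.4 and 48.4 to 25.4 and 25.3 FPKM) and the prostaglandin D synthase Hpgds (from 5.48 and 6.23 to 3.65 and 3.34 FPKM). Leukotriene synthesis fell at Alox5, from 15.9 and 15.9 to 6.74 and 6.65 FPKM (-1.13 ± 0.05), and its helper Alox5ap (from 294 and 283 to 227 and 219 FPKM). The list held 6 rises and 9 falls of 18.

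Arginine and itaconate genes included large rises and a large fall. The nitric oxide synthase Nos2 was at 45.6 and 49.5 FPKM with vehicle and 214 and 205 FPKM with the agonists (2.12 ± 0.04, limma adjusted p = 2.20e-10), and Gch1, which makes its cofactor, went from 10.1 and 9.32 to 18.4 and 17.7 FPKM. Arg1, the cytosolic arginase that IL-4 induces, was at 263 and 262 FPKM with vehicle and 119 and 119 FPKM with the agonists (-1.14 ± 0.07, limma adjusted p = 5.45e-07), while the mitochondrial arginase Arg2 rose, from 7.85 and 7.75 to 21.6 and 21.1 FPKM. Irg1 (Acod1), which makes itaconate, went from 299 and 326 to 1056 and 1029 FPKM. The oxidase chain Cybb (from 274 and 282 to 462 and 440.5 FPKM) and its partner Ncf1 (from 202 and 204 to 279.7 and 283 FPKM) rose. Of 21 such enzymes 11 rose and 7 fell, or 4 fell without vehicle replicate 1.

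Purine and adenosine genes were lower in 11 and higher in 3 of 16 (median -0.43). The surface pair that turns extracellular ATP into adenosine, Entpd1 (CD39, from 10.9 and 10.7 to 4.96 and 5.07 FPKM) and Nt5e (CD73, from 7.41 and 7.63 to 1.86 and 1.54 FPKM), fell together with Ada (from 11.9 and 11.4 to 4.81 and 4.58 FPKM), which destroys adenosine. Gda, the guanine deaminase, went from 12.8 and 12.5 to 3.08 and 2.56 FPKM (-1.84 ± 0.07, limma adjusted p = 1.70e-08). Upp1 (from 15.3 and 15.6 to 47.7 and 45.2 FPKM), which splits uridine, and Ampd3 (from 17.9 and 18.003 to 40.3 and 41.2 FPKM) rose.

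**Figure D4:**
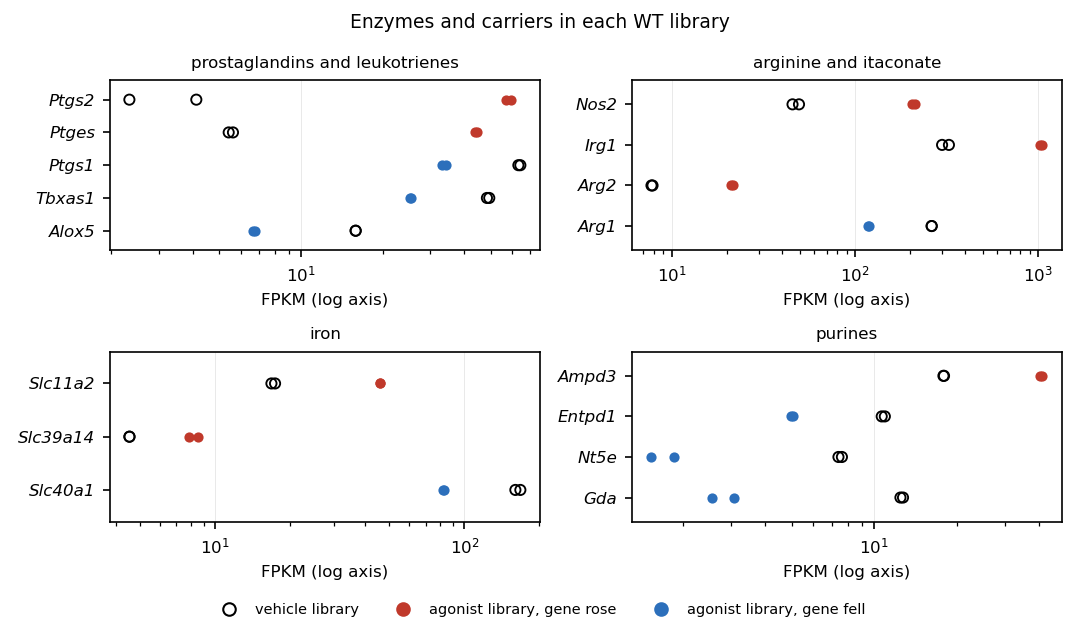
FPKM on a log axis in each WT library for 16 genes in 4 groups (prostaglandins and leukotrienes, arginine and itaconate, iron, purines), open circles for vehicle and filled circles for agonists. Within each group genes move to opposite sides, as for Ptgs2 and Ptgs1, Arg2 and Arg1, and Slc11a2 and Slc40a1.

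Iron genes also split. The importer Slc11a2 (DMT1) was at 17.4 and 16.8 FPKM with vehicle and 45.8 and 45.8 FPKM with the agonists (1.37 ± 0.03, limma adjusted p = 3.82e-10) and the zinc and iron importer Slc39a14 went from 4.54 and 4.55 to 8.57 and 7.90 FPKM. Slc40a1 (ferroportin), the iron exporter of the cell surface, fell, from 168 and 160.2 to 82.8 and 81.8 FPKM (-0.98 ± 0.03), and so did the endosomal ferrireductase Steap3 (from 17.3 and 16.7 to 7.92 and 7.34 FPKM). Fth1, the ferritin heavy chain, had the highest FPKM of any gene tested in each of the 4 libraries, 17725 and 18074 FPKM with vehicle and 19043 and 18216 FPKM with the agonists. In total 8 of 17 rose and 4 fell.

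Glycolysis and glucose uptake had 20 falls and 4 rises among 30 (median -0.23), with Pkm from 909 and 882 to 719 and 714 FPKM and Ldha from 506 and 505 to 418 and 394 FPKM. The rises included Slc2a6, a glucose carrier induced by inflammatory stimuli, from 69.4 and 69.5 to 139 and 143 FPKM, and the regulatory enzyme Pfkfb3, from 35.04 and 34.3 to 49.1 and 50.9 FPKM. The list for the tricarboxylic acid cycle also holds genes outside the cycle, among them Idh1, Slc25a1 and Acly. It had 14 falls and 8 rises of 26, or 18 and 5 on the equal-sum scale. Idh1 (from 132 and 130.2 to 89.3 and 86.6 FPKM) and Idh2 (from 27.8 and 26.5 to 20.4 and 19.6 FPKM) fell, while the citrate carrier Slc25a1 (from 38.002 and 38.1 to 47.5 and 48.2 FPKM) and Acly (from 60.3 and 59.4 to 78.6 and 78.03 FPKM), which cleaves citrate for lipid synthesis, rose. Respiratory chain genes fell in 17 and rose in 1 of 37 (median -0.06), or fell in 29, with a median of -0.15, on the equal-sum scale, with Sdha from 91.9 and 91.4 to 79.8 and 77.3 FPKM and no change over 0.3 log2 units. Hypoxia genes had 2 rises and 8 falls of 20, or 1 and 11 on the equal-sum scale, with Ndrg1 (0.65) higher and Ddit4 (-0.32) lower.

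By number of calls lipid genes divided between synthesis, with more rises, and uptake, with more falls. The largest change of each of these lists went against that, Scd1 (-1.27) and Acsl1 (1.95). Sterol and fatty acid synthesis had 18 rises and 7 falls of 30, and 14 and 9 when all libraries were scaled to the same sum. Idi1 (from 10.3 and 10.3 to 22.7 and 22.8 FPKM) and Hmgcs1 (from 22.6 and 22.95 to 30.3 and 29.8 FPKM) of the mevalonate pathway rose, and the desaturases Scd1 (from 28.8 and 28.6 to 11.01 and 11.6 FPKM) and Scd2 (from 35.5 and 35.8 to 20.96 and 21.1 FPKM) fell. Uptake, carrier and storage genes fell in 15 and rose in 6 of 25, with Fabp4 from 30.96 and 33.2 to 12.7 and 13.02 FPKM, Fabp5 from 845 and 839 to 519 and 517 FPKM, the droplet coat Plin2 from 622 and 612 to 387 and 368 FPKM and their regulator Pparg from 5.11 and 4.19 to 2.34 and 2.24 FPKM. Acsl1, which activates fatty acids, rose, from 66.9 and 71.4 to 272 and 267 FPKM (1.95 ± 0.04, limma adjusted p = 3.05e-10). Cholesterol efflux genes had 4 rises and 11 falls of 19, or 2 rises without vehicle replicate 2 or agonist replicate 2 and 2 and 13 on the equal-sum scale, the exporter Abca1 (0.39) higher and Cyp27a1 (-0.83) and Soat1 (-0.59) lower.

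Genes against oxidative stress included some large rises. Sod2, the mitochondrial superoxide dismutase and an NF-kB target, was at 64.6 and 68.5 FPKM with vehicle and 200.4 and 195 FPKM with the agonists (1.56 ± 0.04, limma adjusted p = 1.02e-09). The cystine carrier Slc7a11 (from 126 and 127 to 251 and 246 FPKM), Txnrd1 (from 201 and 200.0 to 318 and 309 FPKM) and Srxn1 (from 132 and 131 to 207 and 202 FPKM), targets of NRF2, rose, and the NRF2 list had 15 rises and 11 falls of 29, or 12 and 12 when all libraries were scaled to the same sum. The arginine carrier Slc7a2 went from 122 and 123 to 216 and 211 FPKM and the serine enzyme Phgdh from 7.80 and 7.64 to 16.8 and 16.5 FPKM, in a list of 24 with 8 rises and 10 falls.

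Clotting and fibrinolysis genes moved in both directions. Serpinb2 (PAI-2), an inhibitor of plasminogen activators, was at 3.77 and 4.69 FPKM with vehicle and 18.9 and 16.9 FPKM with the agonists (1.86 ± 0.09, limma adjusted p = 1.34e-07). Of its targets Plat rose (from 2.73 and 3.13 to 8.66 and 8.18 FPKM), and Plau (from 60.9 and 60.02 to 33.8 and 32.4 FPKM) and its receptor Plaur (from 152 and 149.7 to 116 and 108 FPKM) fell. That list had 7 rises and 7 falls of 18, or 5 and 9 on the equal-sum scale. Lox, the lysyl oxidase that crosslinks collagen, was at 1.48 and 1.53 FPKM with vehicle and 15.5 and 15.9 FPKM with the agonists (2.73 ± 0.05, limma adjusted p = 2.10e-10), and the metalloproteinase Mmp19 at 108 and 106 FPKM with vehicle and 35.6 and 32.3 FPKM with the agonists (-1.63 ± 0.04). Matrix proteases and inhibitors had 11 rises and 18 falls of 33. Adhesion genes fell in 21 and rose in 14 of 41, with Icam1 from 166 and 167 to 298 and 309 FPKM higher and Itga6 from 5.91 and 6.07 to 2.55 and 2.55 FPKM lower. Actin and migration genes rose in 21 and fell in 12 of 38, led by the bundler Fscn1 (from 277 and 283 to 741 and 776 FPKM), a marker of mature dendritic cells, and Marcksl1 (from 181 and 185 to 449 and 467 FPKM).

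Acute phase proteins rose in 11 and fell in 5 of 22 genes, or 10 and 8 on the equal-sum scale. Saa3 was at 93.7 and 110.1 FPKM with vehicle and 910.1 and 944 FPKM with the agonists (3.18 ± 0.06, limma adjusted p = 9.25e-10), the pentraxin Ptx3 at 0.952 and 1.07 FPKM with vehicle and 10.4 and 9.995 FPKM with the agonists, and the siderophore binder Lcn2 at 21.1 and 25.9 FPKM with vehicle and 106 and 103 FPKM with the agonists. Csf3 (G-CSF), the growth factor of neutrophils, went from 0.567 and 0.712 to 9.90 and 9.31 FPKM (2.69 ± 0.12, limma adjusted p = 6.02e-08). Vegfa fell, from 35.7 and 35.4 to 15.2 and 14.5 FPKM, as did Csf1 (from 100.5 and 101 to 68.7 and 65.8 FPKM), the growth factor of macrophages. Growth factors and receptors together had 10 rises and 16 falls of 37. Inhba, the chain of activin A, went from 86.3 and 95.2 to 289 and 271 FPKM in a list of 23 with 8 rises and 6 falls, or 7 and 9 on the equal-sum scale. S100a9 was uneven (1.15 and 5.62 FPKM with vehicle and 0.777 and 0.906 FPKM with the agonists) and did not pass the test, but it did without vehicle replicate 1, with a log2 fold change of -1.85.

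Proliferation genes were lower, 38 of 49 against 6 higher (median -0.34). Among the D-type cyclins 1 fell and 1 rose. Ccnd1 was at 11.3 and 11.02 FPKM with vehicle and 3.11 and 2.87 FPKM with the agonists (-1.61 ± 0.05, limma adjusted p = 3.52e-09) and Ccnd2 at 50.8 and 48.6 FPKM with vehicle and 126 and 129 FPKM with the agonists (1.34 ± 0.03, limma adjusted p = 7.72e-10). The helicase subunit Mcm2 (from 11.5 and 11.5 to 4.82 and 4.97 FPKM), the loading factor Cdc6 (from 1.75 and 2.01 to 0.471 and 0.597 FPKM) and the centromere histone Cenpa (from 15.3 and 16.6 to 6.004 and 6.21 FPKM) fell. Survival genes, of which 5 fell without vehicle replicate 2 or agonist replicate 1, rose in 21 and fell in 8 of 37 (median 0.21), and in 19 and 12 when all libraries were scaled to the same sum. They included the granzyme B inhibitor Serpinb9 (from 52.1 and 52.9 to 128 and 129.5 FPKM), the caspase 8 decoy Cflar (from 26.4 and 26.9 to 57.5 and 56.5 FPKM) and Bcl2a1b (from 1054 and 1085 to 1567 and 1586 FPKM), a near copy of Bcl2a1a and Bcl2a1d whose reads may be shared.

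The inflammasome list had 9 rises and 7 falls of 21, or 7 and 10 on the equal-sum scale. Its sensors Nlrp3 (from 6.39 and 6.84 to 15.3 and 15.8 FPKM) and Mefv (from 1.42 and 1.63 to 4.88 and 4.94 FPKM) and the lipopolysaccharide-binding Casp4 (from 21.8 and 22.3 to 44.8 and 44.9 FPKM, caspase 11) rose. The adaptor Pycard (ASC) that links the sensors to caspase 1 fell, from 29.2 and 29.6 to 18.7 and 18.1 FPKM (-0.65 ± 0.03, limma adjusted p = 6.78e-08), and Casp1 rose, from 50.7 and 51.3 to 71.9 and 73.1 FPKM.

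Transcription factors of the myeloid lineage had 19 rises and 17 falls of 42, 11 falls without agonist replicate 2, and 16 and 19 on the equal-sum scale. The inhibitors of helix-loop-helix factors Id1 (from 10.5 and 9.40 to 3.42 and 2.63 FPKM) and Id3 (from 40.6 and 37.2 to 19.1 and 17.8 FPKM) fell, with Cebpa (from 25.7 and 25.8 to 17.2 and 17.2 FPKM) and the granulocyte factor Cebpe (from 13.2 and 12.03 to 5.57 and 5.14 FPKM). Zbtb46, a factor of classical dendritic cells, rose, from 13.1 and 13.7 to 19.6 and 22.3 FPKM (0.60 ± 0.06, limma adjusted p = 1.71e-05), as did Cebpd (from 5.19 and 5.07 to 9.54 and 8.78 FPKM) and Prdm1 (from 4.81 and 4.88 to 8.17 and 8.07 FPKM).

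**Figure D5:**
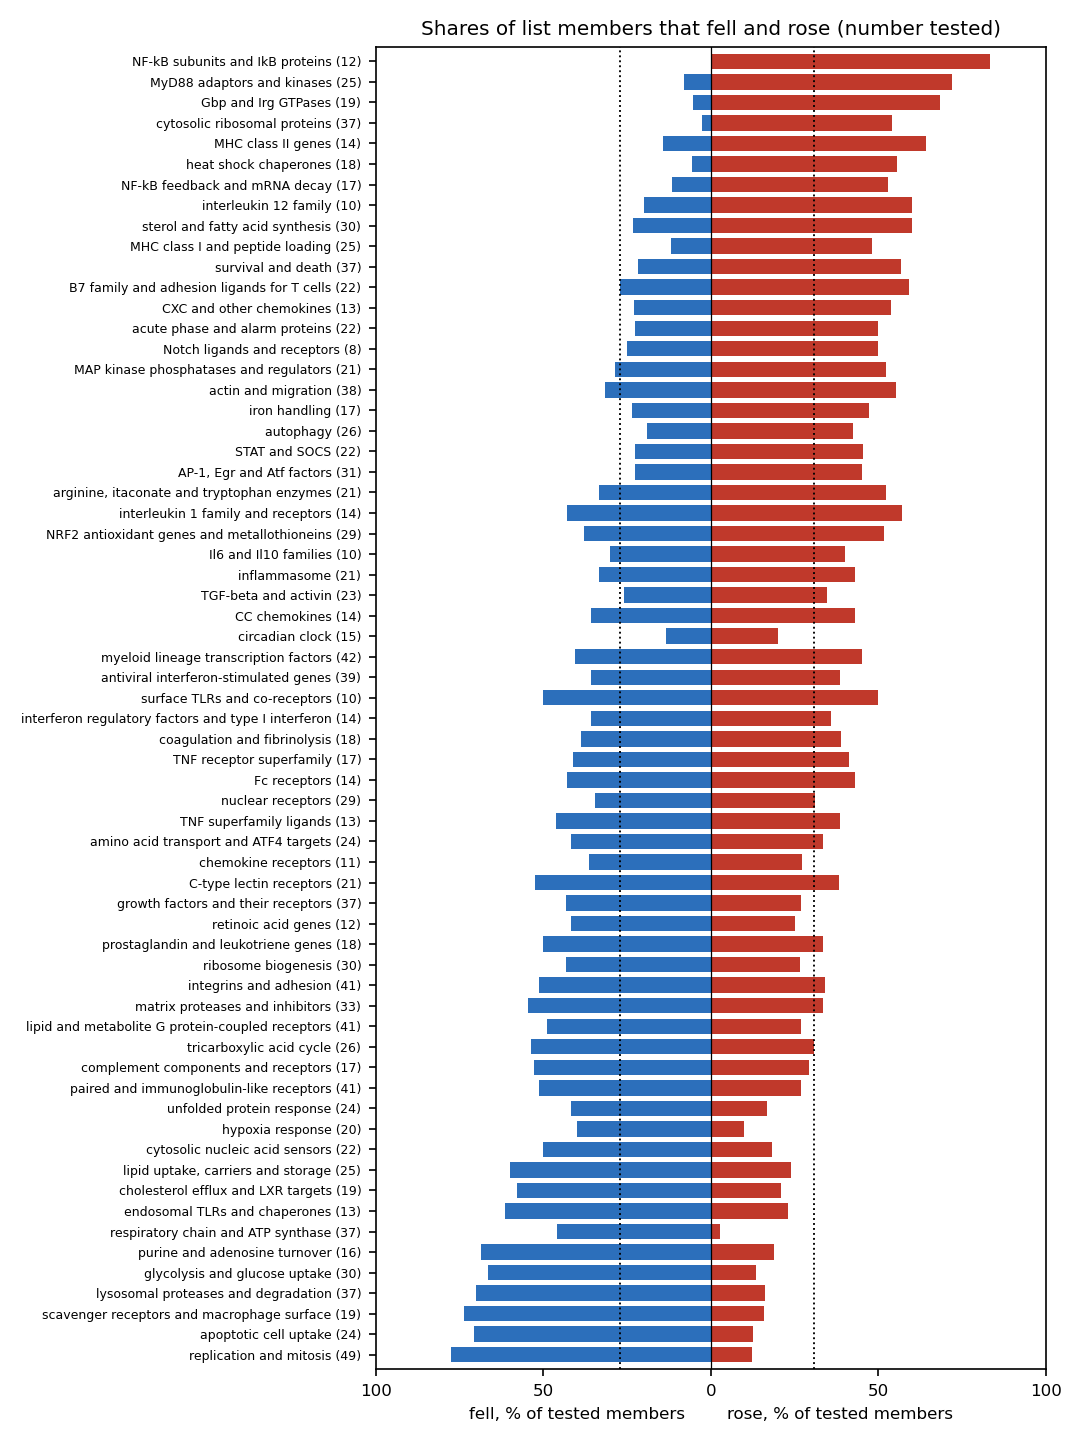
Share of the tested members of each of 64 lists that rose (right) and fell (left), in percent, ordered by the difference. The dotted lines mark the background over all tested genes, 30.8% that rose and 27.0% that fell.

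The degradative and housekeeping lists moved little per gene. Lysosomal genes fell in 26 and rose in 6 of 37 (median -0.17). Psap, the saposin precursor, lost the most FPKM of any gene tested, from 7089.7 and 6931 to 5703 and 5523 FPKM (-1397 on average), and Lyz2 (lysozyme) lost nearly as much, from 6207 and 6147 to 4958 and 4668 FPKM. Cst3 (cystatin C), which inhibits lysosomal proteases, rose, from 3088 and 3114 to 4105 and 4244 FPKM (0.43 ± 0.03, limma adjusted p = 1.12e-06). Autophagy genes rose in 11 and fell in 5 of 26, but rose in 7 and fell in 8 on the equal-sum scale. The cargo receptor Sqstm1 (p62) rose, from 566 and 567 to 1108 and 1114 FPKM. Unfolded protein response genes had 4 rises and 10 falls of 24, heat shock chaperones 10 and 1 of 18, and ribosome biogenesis 8 and 13 of 30. On the equal-sum scale these were 3 and 17, 7 and 5, and 3 and 16. With 1 library left out the falls of the unfolded protein response list numbered as few as 6 (without vehicle replicate 2 or agonist replicate 2), and those of ribosome biogenesis 5 to 8 with each of the 4. The rises of ribosome biogenesis numbered 5 without vehicle replicate 1, vehicle replicate 2 or agonist replicate 2. Cytosolic ribosomal proteins rose in 20 and fell in 1 of 37 as deposited (median 0.06), and in 19 and 1 on the median ratio scale. They fell in 7, with a median of -0.03, when all libraries were scaled to the same sum. Their direction thus depends on the scale, and their rises numbered 10 without vehicle replicate 1, vehicle replicate 2 or agonist replicate 2.

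The response in WT cells was set beside that of the other unoperated arm, labelled KO and, by its source, ERKO Shrt, while another arm of the series is labelled ERKO NULL. It had 2 vehicle and 2 agonist libraries. The genotype labels of that arm differ between its groups, Esr1(tm4.2Ksk) with no receptor activity for the vehicle libraries and Esr1(tm1Ksk) with a truncated receptor for the agonist libraries. By those labels allele and treatment cannot be told apart in the KO response, nor in its difference from WT. A corrupted mate file is recorded for replicate 2 of both KO groups. The difference between the 2 log2 fold changes passed the test in 6.95% of 11348 genes, more positive in WT in 4.65% and more negative in 2.30%. The 789 genes behind that share became 431 without either WT vehicle library, 485 without agonist replicate 2 and 404 with no filter on low values. With all 16 libraries as separate samples the count was 1017. Cd40 rose by 2.47 ± 0.04 in WT and by 1.61 in KO cells, a difference of 0.86 ± 0.06. Cxcl5 rose by 3.28 and 2.12, a difference of 1.17. The chemokine Ccl7 fell by 0.32 in WT and rose by 1.19 in KO cells, a difference of -1.51 ± 0.06 (limma adjusted p = 2.70e-06).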

How the data were processed

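The authors deposited FPKM values per gene for 16 libraries (paired-end TruSeq on HiSeq2500, mouse build mm10), per the labels. Per the submitters' processing notes cutadapt, FastQC, STAR, HTSeq and DESeq2 were used, with no versions, and which program made the FPKM is not stated there. Values were tested as log2(FPKM + 1) in limma 3.58.1 (R 4.3.3) with a trended, robust empirical Bayes fit, 1 coefficient per group, and Benjamini-Hochberg adjustment. The fit held 12 samples: the 8 unoperated libraries and each ovariectomized pair averaged to 1, which leaves 4 residual degrees of freedom. Genes needed 1 FPKM in at least 2 libraries. Left out were 1223 small RNA entries, and 5724 entries were 0 in every library. A 0 was taken as missing where at least 12 libraries were above 0 and all of these held at least 5 FPKM, as for Actr3 in vehicle replicate 2. The scale of equal sums is FPKM scaled to TPM, with the pseudocount kept at 1 on these larger values.

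The spacing of low FPKM values in 3934 genes with 1 annotated transcript gave an estimate of depth. At the estimated depth 48.2% to 52.2% of low values lay within 0.1 of a whole fragment, too few to recover counts, so no count test was run. Alternatives were other pseudocounts, filters, scales and sample sets, the replicate block and leaving out each WT library. Genes named are the 15 largest rises and falls with no overlap of groups (predicted genes and clone names left out), up to 6 members of each of 64 lists with the largest called changes or that stand for the list's role, markers, and the 5 most abundant genes per group. Members and lists were chosen with earlier results of these data known. RefSeq upstream sequences matched 8630 tested genes. Some genes the rule names are not reported here.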

Additional observations from a re-analysis of the deposited data

Results flagged for a closer look

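The same 24 h contrast was also made in the unoperated arm labelled KO (ERKO Shrt), with 2 vehicle and 2 agonist libraries. Their genotype labels name different Esr1 alleles, so allele and treatment cannot be told apart in that arm. The difference between the arms (WT log2 fold change minus KO log2 fold change) was tested for every gene in limma, and it passed an adjusted p of 0.05 in 6.95% of 11348 genes. Among the genes named here 122 of 287 passed, 87 with a more positive and 35 with a more negative value in WT. They were named for large changes in WT, so this share is a description. Ccl22 was not tested, since its zeros in the KO agonist libraries were taken as missing. No explanation was tested. Values below are differences on the log2 scale.

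Signalling genes with a more positive response in WT were Nfkbiz 0.51, Zc3h12a 0.45, Irak3 0.41, Tnip1 0.39, Dusp14 0.38, Map3k8 0.36, Nfkbie 0.30, Stat5a 0.30, Nfkbia 0.24, Nfkb2 0.24, Nfkbib 0.23, Tnfaip3 0.21, Rela 0.20, Ticam2 0.18, Relb 0.18, Irf4 0.17, Nfkb1 0.15 and Ikbke 0.14. Most of these rose in both arms, with a larger rise in WT. Fos, which fell in both arms, had a smaller fall in WT (Fos 0.42). Signalling genes with a more negative value in WT were Socs1 -0.39, Cebpd -0.37, Nr4a3 -0.31, Egr1 -0.31 and Batf -0.20. Among sensors and surface receptors of innate immunity the values were Fpr1 0.71, Fpr2 0.61, Clec4e 0.61, Tlr2 0.59, Cd14 0.30, Mefv 0.56, Mb21d1 0.27, Tlr8 -0.38, C3ar1 -0.76, C5ar1 -0.50 and Gpr183 -0.61.

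Chemokines differed in both directions, Cxcl5 1.17, Ccl17 0.31 and Ccl5 0.30 on the positive side and Ccl7 -1.51, Ccl4 -1.47, Ccl3 -0.81 and Cxcl3 -0.39 on the negative. Ccl7 fell in WT (-0.32) and rose in the KO arm (1.19). The receptor Ccr7 had Ccr7 0.25. Cytokines and their receptors gave Il12b 0.74, Il23a 0.52, Il6 0.51, Ebi3 0.29, Inhba 0.40, Il18rap 0.40, Il1r1 0.38, Il12rb2 -0.41 and Csf1 -0.25. TNF family members were Cd40 0.86, Cd70 0.82, Tnfsf15 0.69, Fas 0.52, Tnfsf4 0.39 and Tnfrsf9 0.28. Ligands for T cells and presentation genes were H2-M2 0.78, Pvr 0.40, Ly75 0.31, Icam1 0.31, Cd80 0.27, Psme2 0.27, Ciita 0.23, Cd86 0.18, H2-Eb1 0.14, Havcr2 -0.24 and 4632428N05Rik -0.55. Interferon genes were Slfn2 0.15, Oas3 -0.21 and Usp18 -0.27.

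Of the genes for the uptake of dying cells 4 were more negative in WT, Gas6 -0.55, Mertk -0.49, Itgb5 -0.41 and Cd300lf -0.23, and 4 were more positive, Thbs1 0.39, Trem2 0.32, Abca1 0.29 and Mfge8 0.28. Other surface genes were Emr1 -0.22 and Itga6 -0.56. Enzymes and carriers were Acsl1 0.63, Irg1 0.62, Ptges 0.55, Slc7a11 0.48, Phgdh 0.44, Srxn1 0.44, Slc11a2 0.42, Slc2a6 0.37, Arg2 0.29, Idi1 0.28, Cybb 0.26, Upp1 0.24, Pfkfb3 0.20, Ampd3 0.19, Alox5ap 0.19, Aldh1a2 0.18, Ada -0.54, Scd2 -0.28, Pdxk -0.26, Slc37a2 -0.21 and Gcnt1 -0.50. Genes of clotting, matrix and movement were Plat 0.60, Marcksl1 0.55, Fscn1 0.43, Mmp19 0.33 and Lox -0.41. Survival, inflammasome and cycle genes were Serpinb9 0.53, Ccnd2 0.44, Casp4 0.40, Cflar 0.25, Casp1 0.23, Bcl2a1d 0.20 and Cenpa -0.45. The remaining genes were Sqstm1 0.34, Zbtb46 0.34, Nr3c1 0.19, Psap 0.18, Lcn2 -0.82, Susd4 -0.77 and Rab3il1 -0.66. Of the 3 genes with opposite signs in the arms, Relb and H2-Eb1 moved by under 0.2 in each.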

How the results depend on the processing

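The counts of 178 higher and 90 lower genes over 2-fold depended on the pseudocount. They were 98 and 24 with a pseudocount of 5 FPKM and 254 and 251 with 0.1 FPKM. When all libraries were scaled to the same sum they were 180 and 191, and 2152 genes rose in all. There the pseudocount also weighed less. On the median ratio scale they were 178 and 90, with 3401 genes higher and 3113 lower in all. With 1 of the 4 libraries left out, 2920 to 3015 genes rose and 2543 to 2655 fell, 177 to 183 and 89 to 100 of them over 2-fold, and of the 268 genes over 2-fold 257 to 262 kept that call. The lone library of a group was then taken to vary like the other groups. The count of genes that differed between the arms fell from 789 to 404 with no filter on low values and to 431 to 569 with 1 WT library left out, and was 556 with the replicate block. Of 4588 values of 288 named genes over 16 alternatives, 4558 kept their direction and call. H2-Aa (-0.0299) and Relb (-0.0756) changed sign when all libraries were scaled to the same sum. The cause of these changes was not tested. With the replicate number as a block 3326 genes rose and 2933 fell. Same-numbered libraries did not deviate together (r = 0.0038 in WT and -0.014 in KO over genes). With 2 libraries per group this cannot tell whether same-numbered libraries shared a mouse or culture. Depth limits genes under 1 FPKM, where a value rests on few fragments.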

Other observations

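Among the 15 largest falls several genes belonged to no list. Rab3il1, an exchange factor for secretory Rab GTPases, was at 23.9 and 23.5 FPKM with vehicle and 6.54 and 6.85 FPKM with the agonists (-1.68 ± 0.05, limma adjusted p = 2.02e-09). Gcnt1, which builds branched O-glycans such as those that carry selectin ligands, went from 21.5 and 21.4 to 6.42 and 5.78 FPKM. Pdxk, the kinase that activates vitamin B6, went from 27.03 and 25.3 to 9.16 and 8.995 FPKM, and the sugar phosphate exchanger Slc37a2 from 82.3 and 82.5 to 28.9 and 28.4 FPKM. Susd4 (-1.54), Tuba8 (-1.45) and Kazald1 (-1.60) fell from 8.38 and 8.56, 8.10 and 7.29 and 14.6 and 15.2 FPKM. In each of these genes both agonist libraries were below both vehicle libraries.

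Some smaller lists showed no common direction. Nuclear receptor genes had 9 rises and 10 falls of 29. Nr4a3 fell, from 68.6 and 67.01 to 36.5 and 37.1 FPKM, the glucocorticoid receptor Nr3c1 rose, from 11.01 and 11.03 to 14.6 and 14.2 FPKM, and Esr1, which encodes estrogen receptor α, was low and fell, from 1.21 and 1.38 to 0.937 and 0.684 FPKM. Retinoic acid genes had 3 rises and 5 falls of 12, with Aldh1a2, the enzyme that makes retinoic acid in dendritic cells, from 165 and 162 to 145 and 149.9 FPKM. Of 8 Notch genes 4 rose and 2 fell, with Jag1 from 17.5 and 17.6 to 27.4 and 27.02 FPKM. Circadian genes had 3 rises and 2 falls of 15, or 3 and 6 on the equal-sum scale, among them Per1 (from 7.43 and 6.50 to 5.20 and 5.49 FPKM) and Bhlhe40 (from 249.9 and 254 to 294 and 307 FPKM).

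Of the 629 tested genes that were under 1 FPKM in both vehicle libraries, 155 rose and 104 fell. Over all genes tested 30.8% rose and 27.0% fell. These 629 genes passed the filter through other libraries, which can be the WT agonist ones. Their split into rises and falls is therefore partly set by the filter. No gene passed from 0 in both libraries of a group to 1 FPKM or more in both of the other. Hdc, which makes histamine, was one that rose, from 0.464 and 0.504 to 2.42 and 2.22 FPKM (1.16 ± 0.07, limma adjusted p = 7.08e-07). Of 12 mast cell and basophil markers Hdc was the 1 that rose, and 2 fell. In this list 9 stayed under 1 FPKM in all 4 libraries, among them the proteases Mcpt8 and Cpa3. Hdc was picked after its values were seen.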
